A study of Homo sapiens and Mus musculus with 10 samples.

Results

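HEK293T and K562 are transformed human cell lines of different origin, and their accessible chromatin was compared through 4 of the 10 bulk ATAC-seq libraries of the study, 2 replicates of each line. HEK293T derives from embryonic kidney and carries the SV40 large T antigen, and K562 is an erythroleukaemia line that carries the BCR-ABL1 fusion. Neither line was treated. Per the labels, HEK293T was grown in DMEM and K562 (written K526 in the growth protocol) in RPMI-1640, both with 10% fetal bovine serum, and each group is a single established line. The labels do not say whether replicates 1 and 2 came from separate cultures, so their spread may be technical. Merging the peaks of the 4 lists on the autosomes and X gave 106851 regions. A region counted as HEK293T-only when both HEK293T lists and neither K562 list had a peak in it, K562-only in the reverse case, and shared when all 4 lists had one. There were 10458 HEK293T-only regions (9.79% of all regions) and 28318 K562-only regions (26.5%), beside 27681 shared regions. Of 19970 protein-coding genes, 809 (4.05%) had a promoter open in HEK293T only and 1045 (5.23%) in K562 only, while 12494 were open in all 4 libraries. A promoter here reaches 1 kb to either side of any GENCODE v44 protein-coding start site. Every other region is called distal, so that promoters of non-coding genes count as distal.

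ATAC-seq reads out where the Tn5 transposase can reach DNA, which is mostly at active promoters, enhancers and sites bound by architectural factors. Promoters rich in CpG dinucleotides are open in most cell types, whereas distal elements differ most between lineages because they are opened by lineage transcription factors. In red cell precursors these are GATA1 with its partners TAL1 and LMO2, KLF1 and NF-E2. In kidney development they include PAX2, LHX1, SALL1 and EYA1, and in adherent cells the TEAD factors act with the co-activators YAP1 and WWTR1. CTCF, a zinc finger protein that shapes chromatin loops, binds many sites that cell types share.

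Sequences at the summits of 8 distal regions show the kinds of site that the sequence comparison turned on. For each consensus, the best-ranked regions of the class that held it within 50 bases of the summit of replicate 1 were taken. Ranking was by the mean rank of the deposited −log10 p over both replicates. Regions of 1 chromosome were left out of this choice, so a better-ranked region there could not be chosen. The sequences are from hg38, plus strand, and capitals mark the matches. All consensus sequences were sought on both strands. The GATA consensus was spelled AGATAA, with T also allowed as its first letter. The GATA–E-box composite joins part of an E-box, at a fixed spacing, to the last letters of a GATA site, and so often contains the GATA consensus. The AP-1 consensus was TGACTCA, with G also allowed in the middle. In the first 4 sequences, capitals mark the composite or AP-1.
K562-only, chr9:108094342-108094442: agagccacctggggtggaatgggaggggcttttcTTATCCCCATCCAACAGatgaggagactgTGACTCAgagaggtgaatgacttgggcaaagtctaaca
K562-only, chr3:143283502-143283602: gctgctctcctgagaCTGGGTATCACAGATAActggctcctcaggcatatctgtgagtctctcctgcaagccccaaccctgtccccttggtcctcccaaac
K562-only, chr1:182300136-182300236: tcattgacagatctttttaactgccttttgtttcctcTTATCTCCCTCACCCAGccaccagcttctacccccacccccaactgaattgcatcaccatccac
K562-only, chr6:44058644-44058744: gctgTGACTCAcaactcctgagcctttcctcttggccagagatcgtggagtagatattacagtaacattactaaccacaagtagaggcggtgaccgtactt

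The first of these lay between genes, 604 kb from the nearest protein-coding start site (KLF4), and had deposited folds (enrichment of the summit against the background around it) of 14.8 and 14.5 in the 2 K562 libraries. It held the composite and an AP-1 site, and neither GM12878 nor HFF1, the other human lines of the study, had a peak there. The second lay in an intron of SLC9A9 with folds of 13.8 and 14.1, and the third between genes, 85.7 kb from GLUL, with folds of 9.91 and 11.5. Both were also open in both HFF1 libraries. The AP-1 example lay 68.0 kb from TMEM63B, had folds of 10.3 and 9.67, and was open in all 4 libraries of the other lines.

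The next 4 sequences are HEK293T-only. Capitals mark a TEAD site (ACATTCCA or ACATTCCT, either strand) in the first pair and a CTCF site in the second pair.
HEK293T-only, chr1:3393431-3393531: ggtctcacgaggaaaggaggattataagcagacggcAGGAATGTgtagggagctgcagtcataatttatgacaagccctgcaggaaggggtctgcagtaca
HEK293T-only, chr21:16194160-16194260: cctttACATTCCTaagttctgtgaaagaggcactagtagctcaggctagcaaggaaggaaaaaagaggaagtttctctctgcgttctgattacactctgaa
HEK293T-only, chr9:25003873-25003973: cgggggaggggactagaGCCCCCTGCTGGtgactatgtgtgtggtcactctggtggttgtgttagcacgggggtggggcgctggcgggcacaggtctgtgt
HEK293T-only, chr4:156294732-156294832: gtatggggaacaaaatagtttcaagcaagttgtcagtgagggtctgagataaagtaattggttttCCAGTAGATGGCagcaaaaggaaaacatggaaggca

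The TEAD examples lay in an intron of PRDM16 (folds 11.4 and 10.1 in the 2 HEK293T libraries) and between genes, 318 kb from USP25 (folds 12.2 and 10.9), and both were open in both HFF1 libraries and in neither GM12878 library. The CTCF examples lay 458 kb from IZUMO3 (folds 18.2 and 19.5) and 341 kb from CTSO (folds 14.9 and 15.8). Both were open in both GM12878 libraries, and the second also in both HFF1 libraries. The first lies within a span of 5.92 Mb on chromosome 9, described below, in which K562 had 1 and 0 peaks.

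The lists differed in length and background between the lines, which bears on every count. HEK293T had 52438 and 52137 peaks and K562 had 78601 and 71241. The background level recovered from the lists, which grows with depth and with reads outside peaks, was 0.465 and 0.466 reads in HEK293T and 2.21 and 1.97 reads in K562, 4.74 and 4.23 times higher. The median summit pileup was 16 reads in both HEK293T and 30 in both K562 libraries. A K562-only call can therefore fall on a site where the HEK293T libraries had too few reads for a peak call. The lists do not give the depth itself. The main counts are also given after the K562 pileups were scaled to the HEK293T background level, which is called scaling here and left 45562 and 45536 K562 peaks, fewer than in HEK293T. Counts with the 40000 best peaks of each library, at equal list length, stand beside them. The lists keep no value for a site without a peak, so a closed site means only that no peak passed the authors' threshold, and in bulk samples a site opened in fewer cells and a site less open in every cell cannot be told apart. With 2 libraries against 2, a two-sided exact permutation test gives a p of 0.33 at best, so no test was run and differences are set beside the spread of the replicates.

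The libraries of a line resembled each other more than those of the other line. The Jaccard index, the share of covered bases in common, was 0.645 between the HEK293T replicates, 0.692 between the K562 replicates and 0.327 to 0.342 between lines. The HEK293T-only class held 1863 promoter and 8595 distal regions, and the K562-only class 4148 promoter and 24170 distal regions. K562-only distal regions were thus 2.81 times as many as HEK293T-only distal regions. After scaling, the numbers were 11841 HEK293T-only and 10978 K562-only, a ratio of 0.927. Promoter regions turned in the same way, from 1863 against 4148 to 2630 against 2014. With the 40000 best peaks of each library, K562-only regions were the more numerous, 10006 against 8212 distal and 2254 against 1994 promoter regions. Which line had more regions of its own thus depended on how the lists were made comparable. At the threshold itself, the weakest HEK293T-only regions had a deposited −log10 q of 2.1 and 2.0 in replicates 1 and 2, and the weakest K562-only regions 2.01 and 2.35. Just outside the rule, 5730 and 5169 regions had a peak in HEK293T replicate 1 or 2 alone, and 13105 and 6948 in K562 replicate 1 or 2 alone. Their median −log10 q was 6.33 and 6.46 in HEK293T and 6.45 and 6.21 in K562, against 10.6 and 10.5 for HEK293T-only and 12.9 and 11.7 for K562-only regions.

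**Figure D1:**
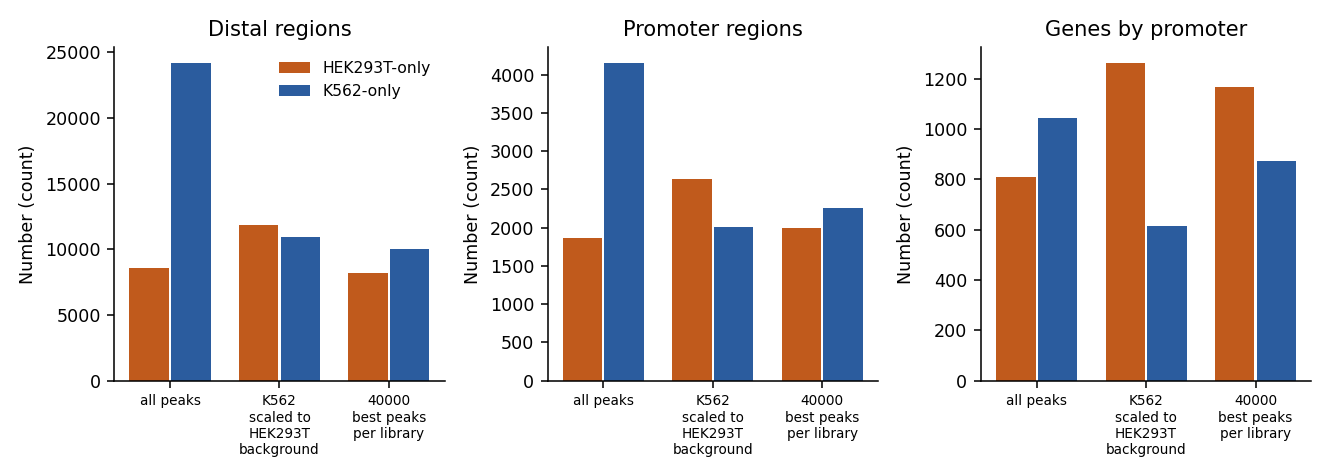
Bars give the number of distal regions, promoter regions and protein-coding genes called open in HEK293T only (orange) or K562 only (blue), with all peaks, with K562 scaled to the background level of HEK293T, and with the 40000 best peaks of each library. K562-only calls outnumber HEK293T-only calls in all 3 panels with all peaks, after scaling there are fewer in all 3, and with the 40000 best peaks there are more distal and promoter regions but fewer genes (872 against 1166).

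Many promoter regions of a single line lay at genes that were open in both lines through peaks at the same or another start site. Of the 4148 K562-only promoter regions, 2740 (66.1%) lay in the window of a gene that was open in all 4 libraries, and 1201 (29.0%) in that of a gene open in K562 only. Of the 1863 HEK293T-only promoter regions, 788 (42.3%) lay at a gene open in all 4 libraries and 968 (52.0%) at a gene open in HEK293T only.

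The genes with a promoter open in HEK293T only numbered 1261 after scaling, the 809 among them, since scaling only removes K562 peaks and cannot undo such a call. Of the 1045 K562-only genes, 616 (58.9%) kept it. With the 40000 best peaks of each library, 1166 genes were HEK293T-only and 872 K562-only.

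Promoters of the 2 classes differed in CpG content, which the rule did not use. The CpG ratio (observed over expected CpG in 250 bases before to 50 after the canonical start site) had a median of 0.764 in the 809 HEK293T-only genes and 0.487 in the 1045 K562-only genes. It was 0.858 in the 12494 shared genes and 0.258 in the 4297 genes with no promoter peak in any of the 4 libraries. By canonical start sites alone, 746 of the 809 HEK293T-only and 833 of the 1045 K562-only genes kept their class. For the others, the ratio may describe a start site other than the open one. A ratio under 0.4 was found in 14.1% of HEK293T-only and 43.9% of K562-only genes. After scaling, the medians were 0.758 over 1261 HEK293T-only genes and 0.523 over 616 K562-only genes, so the order of the classes was the same.

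The RefSeq promoters of a K562-only and a HEK293T-only gene, chosen by hand, show letter by letter how far single promoters can differ. Within the classes the CpG ratio varied widely, with quartiles of 0.249 and 0.791 in K562-only and 0.602 and 0.900 in HEK293T-only genes. RHAG encodes a glycoprotein of the Rh complex in the red cell membrane, and SIM1 a bHLH-PAS transcription factor of hypothalamic neurons. Each run has 300 bases on the minus strand of GRCh38.p14, written in the direction of transcription. Capitals mark each CpG and, in RHAG, also a GATA site on the opposite strand.
RHAG, chr6:49636790-49637089: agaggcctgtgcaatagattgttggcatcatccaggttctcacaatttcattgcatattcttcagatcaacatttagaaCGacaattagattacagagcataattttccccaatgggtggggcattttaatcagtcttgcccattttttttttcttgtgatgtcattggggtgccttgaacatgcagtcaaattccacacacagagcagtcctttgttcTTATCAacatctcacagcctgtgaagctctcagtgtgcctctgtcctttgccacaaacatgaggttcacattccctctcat
SIM1, chr6:100464872-100465171: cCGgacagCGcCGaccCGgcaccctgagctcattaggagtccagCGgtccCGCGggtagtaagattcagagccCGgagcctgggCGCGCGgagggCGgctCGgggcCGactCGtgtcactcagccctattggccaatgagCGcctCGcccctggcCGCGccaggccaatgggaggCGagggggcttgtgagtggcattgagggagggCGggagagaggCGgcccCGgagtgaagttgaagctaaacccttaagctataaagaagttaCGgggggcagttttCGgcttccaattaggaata

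RHAG had 1 CpG and a GC content of 42%, and SIM1 had 25 CpG and 64%. RHAG had 1 match to the GATA consensus and SIM1 none. Over all 27195 promoters of the RefSeq table, 16.6% held the GATA consensus. It stood in 18.8% of the 743 K562-only and 11.0% of the 625 HEK293T-only promoters found there. The table covers 71.1% of K562-only and 77.3% of HEK293T-only genes, and promoters of genes with no peak held the consensus more often, in 24.4% of 3002.

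The 12 best-ranked genes of each direction were spread over many functions, and 10 of the HEK293T-only genes are described. In HEK293T the first was FSTL5, a secreted follistatin-like protein, whose promoter peak at chr4:162163796-162164632 had folds of 19 and 18.5. ADAMTS15, a secreted metalloproteinase of the ADAMTS family, had folds of 16.3 and 15.7 (chr11:130448300-130449057), and CATSPERE, a subunit of the sperm calcium channel, 16.5 and 17.0 (chr1:244461158-244461829). Neither K562 library had a peak in any promoter window of these genes. CRISPLD1, a secreted cysteine-rich protein, followed with 17.0 and 16.5, and ALDH7A1, an aldehyde dehydrogenase of lysine breakdown, with 16.3 and 15.8. SIM1, the hypothalamic factor described above, had folds of 11.2 and 12.5. The others described were GALNT13, which starts O-linked glycans (12.3 and 11.2), CABCOCO1 (19.6 and 19.2), TIAM1, an exchange factor for RAC (9.5 and 9.71), and PHLDB2, which anchors microtubules at the cell cortex (13.6 and 14.6).

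In K562 the first was PSMD5, an assembly chaperone of the proteasome, whose peak at chr9:120842469-120843554 had folds of 9.39 and 9.68. The nearest HEK293T peaks lay 25491 and 25499 bp from its canonical start site, while all 4 libraries of GM12878 and HFF1 had a peak over it. RNF212B, a gene of meiotic recombination, had folds of 18.8 and 17.9 (chr14:23237717-23238173), and MEIOB, which also acts in meiosis, 17.2 and 16.7. OPLAH, the 5-oxoprolinase of the glutathione cycle, had 10.9 and 11.7. SERPIND1, which encodes the thrombin inhibitor heparin cofactor II, had 9.79 and 10.5, at a start site other than its canonical one. CD164L2 had 11.7 and 14.7, DEUP1, which multiplies centrioles in ciliated cells, 12.1 and 13.6, GNG3, a G-protein subunit, 9.84 and 10.3, and CCRL2, a chemokine receptor-like protein, 11.0 and 13.2. The zinc finger genes ZNF467 (7.58 and 7.76), ZNF253 (13.6 and 13.3) and ZNF726 (15.1 and 16.4) completed the list. All 12 K562-only genes kept their call after scaling.

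**Figure D2:**
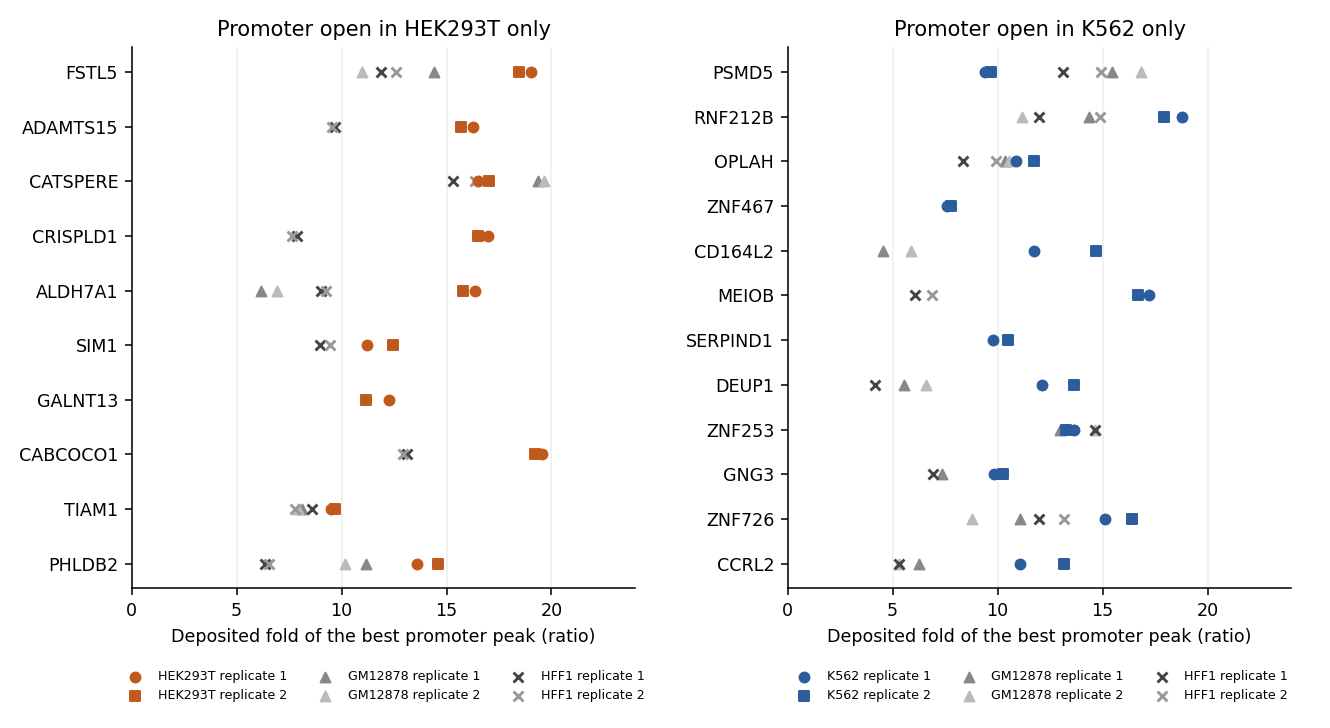
Points give the deposited fold (a linear ratio, summit against surrounding background) of the best promoter peak in each library for 10 of the 12 best-ranked HEK293T-only genes and the 12 best-ranked K562-only genes; a library with no promoter peak has no point, and folds of different libraries are not on a common scale. Coloured points are the 2 replicates of the line, from 9.5 to 19.6 in HEK293T and from 7.58 to 18.8 in K562, and grey points show which genes also had a peak in GM12878 or HFF1.

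Lists of blood genes held more K562-only than HEK293T-only members, through a few genes each. Of 20 blood transcription factors, 0 were HEK293T-only and 4 (20%, against 5.23% of all genes) were K562-only, and all 4 kept the call after scaling. They were TAL1 (folds 5.75 and 5.86 in K562), LYL1 (6.03 and 6.10), SPI1 (7.21 and 7.49), the PU.1 factor of myeloid cells, and GATA1 (4.08 and 4.71). A further 12, among them GATA2, NFE2, MYB and RUNX1, had promoters open in all 4 libraries, so most of this list did not separate the lines at promoters. KLF1 had no promoter peak in any of the 4 libraries. Of 10 globin genes, 5 (50%) were K562-only and 0 HEK293T-only. The embryonic epsilon-globin gene HBE1 had folds of 8.38 and 8.12 and the embryonic zeta-globin gene HBZ 4.85 and 5.96. HBD (7.40 and 5.92) and HBM (7.28 and 6.91) were also called. HBG2 was counted through an upstream start site that it shares with HBE1, and at its canonical start site it had no peak in the 4 libraries. HBB, HBG1, HBA1 and HBA2 had none either. The gamma and alpha pairs are near-identical copies, and how the authors placed reads that map to both is not given in the sources used here.

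Of 31 genes of the red cell membrane, haem and iron, 5 (16.1%) were K562-only and 0 HEK293T-only. They included RHAG (9.5 and 9.53), the glycophorin gene GYPE (12.2 and 10.2) and HEMGN (6.48 and 6.72), a nuclear protein of erythroid differentiation. After scaling, 4 of the 5 kept the call. GYPE has close copies, which again makes its values uncertain. In this list 18 genes were open in all 4 libraries, including TFRC and most haem enzymes. Of 28 blood surface and signalling genes, 6 (21.4%) were K562-only, of which SPN (5.94 and 5.61), RAC2 (6.26 and 6.29) and CD33 (7.30 and 8.86) kept the call after scaling and ARHGDIB, HCLS1 and LAPTM5 lost it. In the opposite direction, 2 genes were HEK293T-only, among them CD34 (7.77 and 9.86 in HEK293T), a surface protein of blood progenitors and endothelium. Of 18 genes of the BCR-ABL1 and STAT5 pathway, 15 were open in all 4 libraries. Only STAT5A and STAT5B, which share a peak between them (5.99 and 5.90), were K562-only in that list (11.1%).

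Developmental regulators leaned to HEK293T. Of 26 kidney development regulators, 9 (34.6%) were HEK293T-only, against 4.05% of all genes, and 1 was K562-only. EYA1 had folds of 12.7 and 18.3, the integrin gene ITGA8 12.1 and 11.5, POU3F3 6.28 and 7.32, and SALL1 8.75 and 7.34. The others were IRX3, GDNF and its receptor gene GFRA1, PAX2 (7.66 and 7.01) and LHX1 (5.05 and 6.24). PAX2 and LHX1 had no promoter peak in GM12878 or HFF1 either. PAX8 was the K562-only member (9.84 and 9.85), at a start site other than its canonical one, where no library of either line had a peak. WT1 and GATA3 were among the 9 open in all 4 libraries. SIX2 was too, and turned to HEK293T-only after scaling.

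Of 31 neural genes, 9 (29.0%) were HEK293T-only and 2 K562-only. They included genes of synaptic vesicles (SYT1, 10.3 and 10.9), of RNA binding in neurons (ELAVL2, 10.3 and 10.4), of axon growth (GAP43, 12.4 and 13.9) and of neurofilaments (NEFM, 11.4 and 11.0, and INA). The transcription factor genes DLX5 (9.72 and 8.57) and SOX3 (5.23 and 6.26) were also among them. NEFH (6.14 and 7.79) and TUBB3 (4.23 and 4.22) were the K562-only members. Of 26 epithelial genes, 3 were HEK293T-only (ESRP2, OCLN and CLDN3) and 7 (26.9%) K562-only, of which 5 kept the call after scaling. With all peaks, that K562-only share was larger than those of the blood transcription factor, red cell and blood surface lists and than the 5.23% of all genes. After scaling the epithelial share, 5 of 26, was still larger than those of the red cell list (4 of 31) and the blood surface list (3 of 28). It was then not larger than that of the blood transcription factors, 4 of 20. The K562-only members included the claudin genes CLDN4, CLDN6 and CLDN7 (9.18 and 9.86) and KRT19 (4.84 and 5.68), and EPCAM, KRT8 and KRT18 were open in all 4 libraries. CLDN4 and CLDN6 had their peaks at start sites other than the canonical ones.

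Genes of adhesion and of the TEAD and YAP pathway were mostly open in both lines. Of 26, 22 were shared, 2 (7.69%, against 4.05% of all genes) were HEK293T-only and 0 K562-only. After scaling, 5 were HEK293T-only and 0 K562-only, where 1261 and 616 of all 19970 genes were. The 2 HEK293T-only genes with all peaks were CDH2, which encodes N-cadherin (7.39 and 7.46), and ANKRD1, a known target of YAP1 (9.49 and 11.1). Of 10 AP-1 genes, 9 were shared and BATF had no peak in the 4 libraries, so their promoters did not separate the lines. Among 26 genes of innate sensing and antigen presentation, 2 were HEK293T-only, including IRF8 (10.4 and 7.64), and 2 K562-only, or 7.69% each beside 4.05% and 5.23% of all genes. STING1, an adaptor of DNA sensing (6.69 and 6.49) and CD74 were the K562-only members, and CD74 lost the call on scaling. Of 39 HOX genes, 6 were HEK293T-only (HOXA4, HOXA5, HOXB13, HOXD3, HOXD11 and HOXD13; 15.4%) and 5 K562-only (HOXA6, HOXB5, HOXC6, HOXC9 and HOXD10; 12.8%), and after scaling 11 and 4.

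With all peaks, markers of lineages that neither line represents gave single calls. Each of the lists of B-cell, T-cell, fibroblast and endothelial markers had 1 K562-only gene (FCRLA, CD3D, PDGFRB and PECAM1) and 0 HEK293T-only genes. In lists of 8 to 14 genes, 1 gene is 7.14% to 12.5%, against 5.23% of all genes K562-only. The hepatocyte list had neither. After scaling, CD3D and PDGFRB kept the call, and FCRLA and PECAM1 lost it. The fibroblast list then had 3 HEK293T-only genes and the endothelial list 1. Of all 19970 genes, 1261 were HEK293T-only and 616 K562-only after scaling. All 10 reference genes were open in all 4 libraries.

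**Figure D3:**
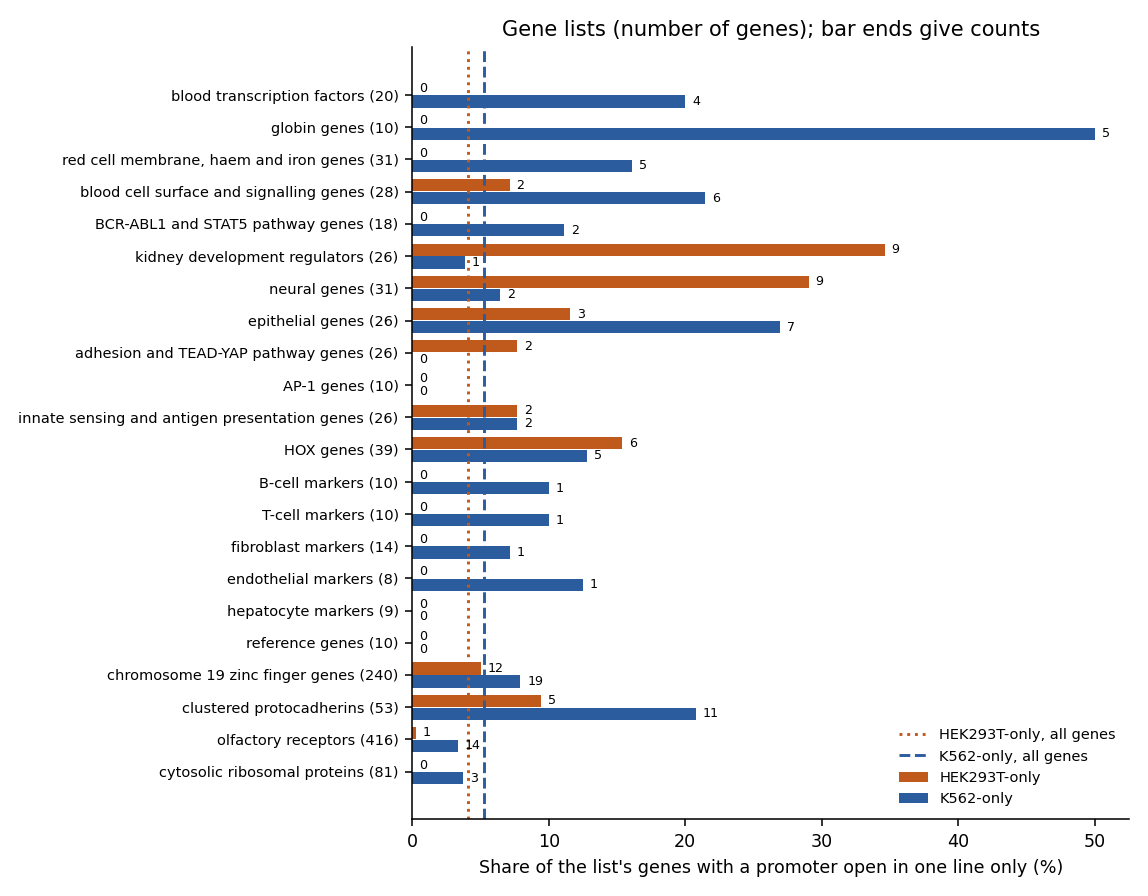
Bars give the percentage of each gene list (number of genes in brackets) with a promoter open in HEK293T only (orange) or K562 only (blue), with the counts at the bar ends; the dotted and dashed lines are the percentages over all genes, 4.05 and 5.23. The longest orange bars are those of the kidney (9 of 26) and neural lists (9 of 31), and the longest blue bar is that of the globin genes (5 of 10).

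A set of genes was open in both lines but through different start sites. Of the genes open in all 4 libraries, 139 had both a HEK293T-only and a K562-only start site, and 66 of these had no shared start site. After scaling, 43 of the 66 kept that pattern. The 2 start sites with the strongest peaks were a median of 50.1 kb apart (1.36 to 769 kb). The HEK293T-only site was the upstream of the pair in 49 genes and the K562-only site in 17. The strongest example was COL21A1, a collagen gene, with folds of 15.1 and 14.7 at the HEK293T start site (position 56247580 of chromosome 6) and 9.06 and 11.6 at the K562 site (56394094), 147 kb upstream. EPOR, the erythropoietin receptor gene, used sites 3.08 kb apart. Its HEK293T-only site had folds of 7.76 and 7.64, and its K562-only site, which lay upstream, 8.02 and 8.40. CDK6, a kinase gene of the cell cycle, had sites 2.66 kb apart (6.67 and 6.54 in HEK293T, 6.19 and 6.80 in K562), again with the K562-only site upstream. In WWTR1, the TEAD co-activator gene, the HEK293T-only site (11.7 and 13) lay 81.8 kb upstream of the K562-only site (6.63 and 8.52). MBNL3, a splicing regulator gene, TBX2 and LGR5 also kept the pattern after scaling, each with the HEK293T-only site upstream.

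Distal regions of the 2 classes lay at different distances from genes. The median distance to the nearest protein-coding start site was 68759 bp for HEK293T-only and 19644 bp for K562-only regions, while shared distal regions lay at 19678 bp. More than 100 kb from any start site lay 43.0% of HEK293T-only, 13.9% of K562-only and 13.2% of shared distal regions. After scaling, the medians were 54425 bp and 19503 bp. Between genes lay 61.1% of HEK293T-only and 50.6% of K562-only distal regions, and in introns 36.8% and 45.0%. GC content over the central 300 bp had a median of 47.7% in HEK293T-only and 49.3% in K562-only distal regions. The best-ranked HEK293T-only distal regions were chr13:61880676-61881298 (folds 16.2 and 16), chr10:108911761-108912262 (22.5 and 21.9), chr2:213451421-213452088 in an intron of SPAG16 (18.6 and 18.9), chr13:62357984-62358643 (16.9 and 20.0) and chr6:71420211-71421131 (14.2 and 15.0). Those 5 lay between 38208 and 959020 bp from a start site. The best-ranked K562-only distal regions were chr7:126667666-126668648 in an intron of GRM8 (15.1 and 15.1), chr9:120896845-120897576, 2315 bp from PHF19 (10.6 and 10.9), chr3:9862458-9863145 (13.4 and 13.2), chr14:19372764-19373470 (20.1 and 20.8) and chr3:143084834-143085835 (13.7 and 12.6).

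The chromosomes differed in which class they held. Over all chromosomes with all peaks, K562-only regions per HEK293T-only region ranged from 0.644 on chromosome 13 (440 against 683) to 17.6 on chromosome 19 (1286 against 73). Chromosome 13 was the only one of the 23 with fewer K562-only than HEK293T-only regions with all peaks. The next lowest ratios were 1.22 on chromosome 4 and 1.5 on X, and the next highest 10.3 on chromosome 22 and 7.64 on chromosome 16. After scaling, the ratio was 0.203 on chromosome 13 and 5.11 on chromosome 19, so both ends of the order were the same chromosomes. Chromosome 13 has a GC content of 38.6% and 3.30 protein-coding genes per Mb, and chromosome 19 has 47.9% and 25.3. The part of base composition and gene density in the order was not tested.

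**Figure D4:**
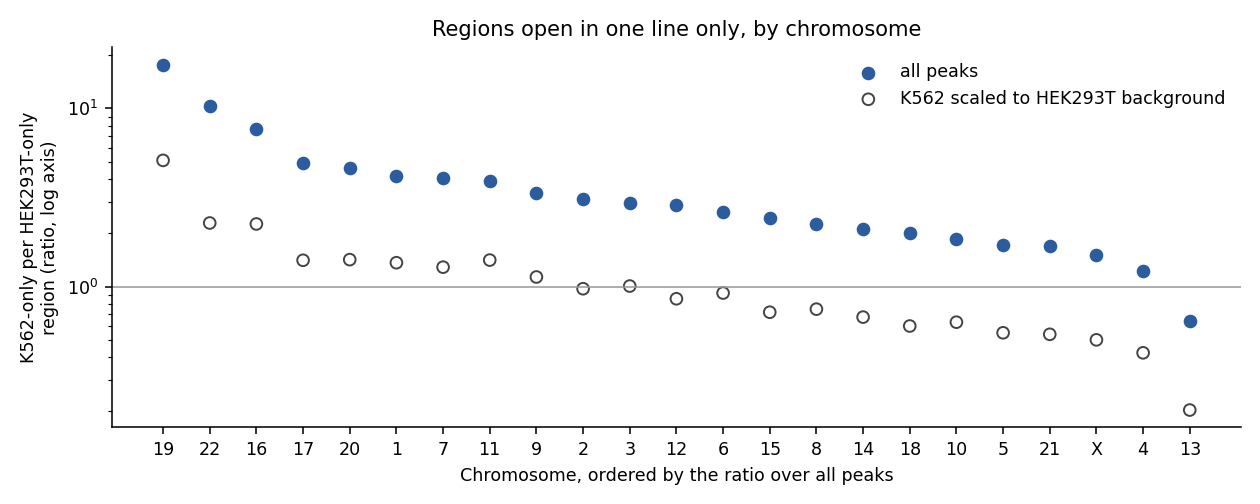
Points give the number of K562-only regions per HEK293T-only region on each chromosome (log axis), with all peaks (filled) and with K562 scaled to the background level of HEK293T (open), and the line marks a ratio of 1. Chromosome 19 has the highest and chromosome 13 the lowest ratio in both settings, 17.6 and 0.644 with all peaks.

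HEK293T-only regions came in long runs. On chromosome 13, 78 successive regions called in HEK293T, over 5.23 Mb (chr13:60654473-65883122, around PCDH20), had no K562 peak. This span held 113 and 121 HEK293T peaks and 4 and 4 K562 peaks. GM12878 had 60 and 68 peaks in it and HFF1 18 and 16. A second run on that chromosome covered 45 regions at SLITRK1 and SLITRK6 (chr13:83881885-86975255), with 0 and 1 K562 peaks. Outside chromosome 13, the longest runs were 36 regions at PCDH18 on chromosome 4 (chr4:134219152-137611353) and 35 regions on chromosome 9 (chr9:20941131-26856710). The latter spans 27 protein-coding genes, among them FOCAD and the type I interferon genes. It had 1 and 0 K562 peaks (0 and 0 after scaling) against 47 and 49 in HEK293T and 104 to 146 in the other lines. Peak lists do not show whether a line carries the DNA of such a span, and this was not tested. In the reverse direction, the longest run was 44 regions called in K562 at KIF26B and SMYD3 (chr1:245229157-246497610), with 1 and 1 HEK293T peaks, 59 and 51 K562 peaks (30 and 24 after scaling) and 40 to 77 peaks in the other lines.

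The genes nearest to the most HEK293T-only distal regions were PCDH9 (70 regions), GPC5 (37), SPRY2 (36), TENM3 (36), CSMD3 (28), SLITRK5 (27), KLHL1 (26), NR2F1 (25), SLITRK6 (25) and DACH1 (24). Of these, PCDH9, GPC5, SPRY2, SLITRK5, KLHL1, SLITRK6 and DACH1 lie on chromosome 13. PCDH9, TENM3 and the SLITRK genes encode adhesion proteins of neurons. Around PCDH9 there were 11 K562-only regions, and 0 around CSMD3, SLITRK5, NR2F1 and SLITRK6. The genes nearest to the most K562-only distal regions were GSE1 (36), JARID2 (32), MTPN (31), ZFPM2 (31), ZEB2 (30), BCOR (28), SMYD3 (28), ADGRB3 (26), RYBP (26) and SGMS1 (26). JARID2, BCOR and RYBP encode subunits of Polycomb complexes. After scaling, K562-only regions fell to 23 at GSE1, 17 at JARID2 and 15 at BCOR, whereas HEK293T-only regions at PCDH9 came to 73. All 10 genes of the K562 group were open in all 4 libraries through at least some start site, so the lines did not differ there in the promoter call of the gene. Single promoter regions at these genes were not compared.

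Distal regions near the listed genes were counted within 100 kb of their start sites, counting a region once for each gene it lies near. Near the 20 blood transcription factors there were 150 K562-only and 17 HEK293T-only distal regions. Near the 31 red cell genes there were 153 and 6, and near the 10 globin genes, which stand in clusters and so share regions, 85 and 0. Over the genome the ratio of K562-only to HEK293T-only was 2.81, but other lists also exceeded it. The 10 reference genes had 45 and 4, and the epithelial genes 97 and 14. The 10 AP-1 genes had 49 and 0, and the T-cell markers, genes of another blood lineage, 34 and 1. The excess near blood genes was therefore not particular to them in this count. Near the 31 neural genes the numbers were 41 and 41 and near the 26 kidney regulators 68 and 30. These counts were made with all peaks and not after scaling.

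The sequences under the summits differed between the classes for several factors of the lineages. Both libraries of a line were read on the same regions, so the SD below covers only the placing of the summit and is small by construction. Among 24 consensus sequences searched on both strands, GATA was the most frequent in K562-only distal regions, in 25% ± 0.167 of 24170 (SD, n = 2 libraries). It stood in 7.18% ± 0.132 of 8595 HEK293T-only distal regions, and in 4.57% and 5.69% of shared distal regions read at HEK293T and K562 summits. The same letters read backwards, which served as background, gave 4.16% in K562-only and 5.48% in HEK293T-only regions. Over all distal regions of a library the GATA share was 5.74% to 5.88% in HEK293T and 16.4% in both K562 libraries. The GATA–E-box composite, the arrangement bound by GATA1 with TAL1, stood in 3.75% ± 0.0585 of K562-only and 0.215% ± 0.00823 of HEK293T-only regions, against backwards shares of 0.120% and 0.105%. It overlaps the GATA consensus wherever the base before its last 5 letters is A or T.

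AP-1, bound by FOS and JUN family dimers, followed with 13.9% ± 0.143 of K562-only and 4.12% ± 0.0411 of HEK293T-only regions, against 3.74% and 4.44% of shared regions. NF-E2 (GCTGAGTCA), which contains an AP-1 site, stood in 3.03% and 0.401%. NFY was found in 6.46% and 3.43%, STAT5 in 2.04% and 0.698%, and the KLF consensus (CCACACCC) in 2.29% and 0.809%. The backwards shares in K562-only and HEK293T-only regions were 1.70% and 1.64% for AP-1, 2.35% and 2.11% for NFY, 0.490% and 0.343% for STAT5 and 0.908% and 0.570% for KLF. In the opposite direction, TEAD stood in 1.56% ± 0.0411 of HEK293T-only and 0.770% ± 0.0351 of K562-only distal regions, against backwards shares of 0.355% and 0.343%. PBX-HOX (TGATTTAT) stood in 0.646% and 0.292%, but its backwards shares, 0.285% and 0.0931%, differed in the same direction. CTCF was the consensus that set shared regions apart, at 14.8% and 15.9%, against 4.74% ± 0.0247 of HEK293T-only and 2.4% ± 0.0263 of K562-only distal regions. At K562-only promoter regions GATA stood in 13.7% ± 0.392 of 4148, against 1.48% ± 0.0380 of 1863 HEK293T-only promoter regions. NFY stood in 6.66% of HEK293T-only and 5.52% of K562-only promoter regions, against 13% and 14.5% of shared ones. After scaling, the GATA share of K562-only distal regions was 29.1% and the AP-1 share 16.6%.

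**Figure D5:**
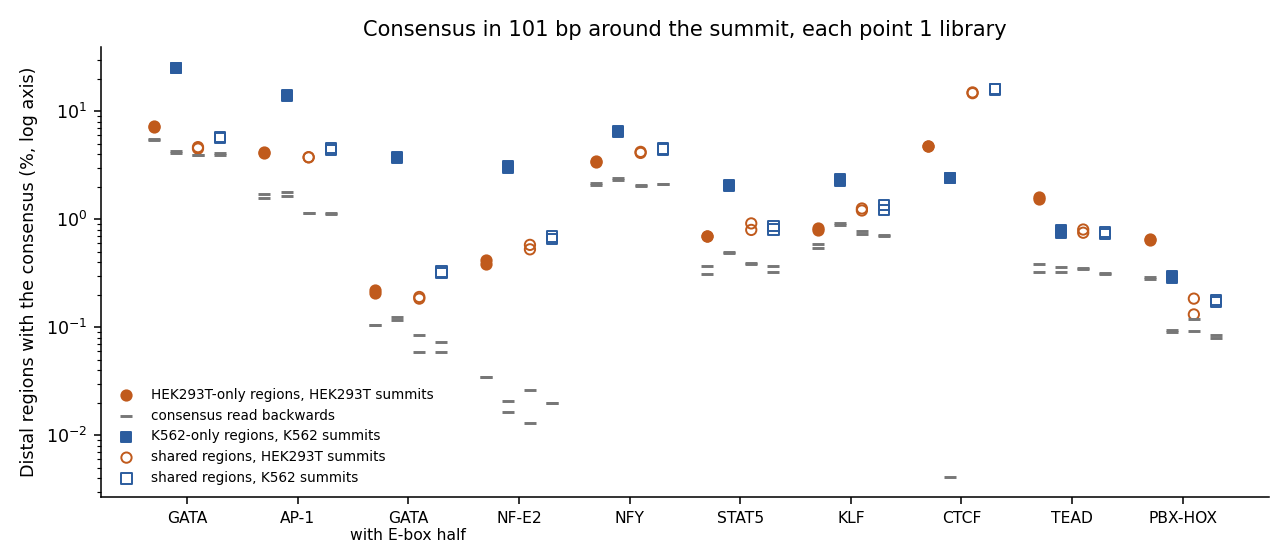
Points give, for each library, the percentage of distal regions with the consensus within 50 bp of the summit (log axis), in HEK293T-only (filled orange), K562-only (filled blue) and shared regions (open), with grey dashes for the consensus read backwards; shares of 0 cannot be drawn on this axis. GATA reaches 25% in K562-only regions against 7.18% in HEK293T-only regions, and CTCF is highest in the shared regions.

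The other human lines, which the classes did not use, gave a second readout. Promoters of HEK293T-only genes had a peak in both HFF1 (fibroblast) libraries in 80.7% and in both GM12878 (B-lymphoblastoid) libraries in 48.2%. For K562-only genes the shares were 57.5% and 54.7%, and over all 19970 genes 76.2% and 71.9%. No peak in any of those 4 libraries was found for 8.28% of HEK293T-only, 21.4% of K562-only and 17.2% of all genes. After scaling, these shares were 7.06% and 18.8%. Of the 12 best-ranked HEK293T-only genes, 11 were open in both HFF1 libraries and 7 in both GM12878 libraries, and of the 12 K562-only genes 6 and 8. At distal regions the lines gave 28.9% (GM12878) and 26.5% (HFF1) of HEK293T-only regions, and 24.2% and 24.4% of K562-only regions. In neither line lay 46.5% of HEK293T-only and 57.6% of K562-only distal regions.

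The consensus sequences marked different parts of the distal regions in this readout. K562-only regions with a GATA site were absent from both other lines in 72.4% and 71.8% of cases (K562 replicates 1 and 2), and those without it in 52.6% and 52.9%. With the composite the shares were 79.5% and 79.9%. AP-1 sites went the other way. K562-only regions with an AP-1 site were open in both HFF1 libraries in 43.2% and 43.5%, against 21.3% and 21.3% without it, while for GM12878 the shares were 26% and 25.7% with it and 23.9% and 24% without it. In HEK293T-only regions, a CTCF site went with a peak in both GM12878 libraries in 62.8% and 62.3%, against 27.3% and 27.3% without it. A TEAD site went with a peak in both HFF1 libraries in 41.6% and 40.9%, against 26.3% and 26.3%, on only 137 and 132 regions.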

How the data were processed

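Bulk ATAC-seq peak lists of 4 libraries were compared, and 4 lists of GM12878 and HFF1 served as a further readout. The authors deposited 1 narrowPeak list per library, with a score, a fold (a linear ratio of summit to surrounding background), −log10 p and −log10 q values for each peak. Replicates were not pooled. The lists end at a q threshold of 0.01. Per the submitters' processing notes, cutadapt 3.2, Bowtie2 2.4.2, Picard, MACS2 2.2.7.1 and hg38 were used for the series, with no role or order stated. Read shift, duplicate filter and blacklist are not given in the sources used here. Libraries were grouped by their labels.

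Peaks that touched were merged, and classes, distances and promoters were computed with Python 3.11.15 and pysam 0.24.0 on hg38 and GENCODE v44. Pileup and background were recovered from the deposited fold and −log10 p of every peak and, for the scaled alternative, multiplied by the ratio of background levels. The K562 peaks that still passed the lowest −log10 p of HEK293T were kept, with no random draw. The recovery, merging and classing were tested on simulated data. No test was run, since an exact permutation test of 2 libraries against 2 gives a p of 0.33 at best.

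Named were the 12 genes per direction with the best mean rank of the −log10 p of the promoter peak (no readthrough genes, 1 gene per region), list members open in a single line, the 5 best distal regions, and the 10 genes nearest to most distal regions. Members and lists were chosen with earlier results of these data known. Some genes that meet this rule are not reported here.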

Additional observations from a re-analysis of the deposited data

How the results depend on the processing

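Which line had more calls depended on how the lists were made comparable. With K562 scaled to the background level of HEK293T, K562-only calls came to 10978 distal regions, 2014 promoter regions and 616 genes, and HEK293T-only genes to 1261. With the 40000 best peaks per library there were 10006 K562-only distal and 2254 K562-only promoter regions, against 8212 and 1994 HEK293T-only. Leaving out 1 library at a time gave 9233 to 13826 HEK293T-only and 26097 to 36310 K562-only distal regions, 2015 to 2623 and 4713 to 5972 promoter regions, 882 to 975 and 1170 to 1318 genes, and 85 to 99 genes with different start sites. The highest counts of distal regions came without HEK293T replicate 2 (13826), without HEK293T replicate 1 (13403) and without K562 replicate 2 (36310), where a single list calls the line. A −log10 q of at least 5, gaps of up to 200 bp, windows of 500 bp and canonical start sites each kept those counts they were run on within 1.5 times. Under the scaling, threshold, list length, merging and leave-out settings, the GATA share of K562-only distal regions ran from 22.3% to 29.1%, AP-1 from 12.7% to 16.6%, CTCF of HEK293T-only from 4.05% to 7.43% and TEAD from 1.27% to 1.56%. Of HEK293T replicate 1 peaks, 66.5% overlapped a peak of K562 replicate 1, and 66.1% by at least 50% of the shorter peak. No paired analysis was possible because the results are overlaps of peak lists and come from no test. The lower summit pileups and background level of HEK293T limit what K562-only calls can show, and the depth itself was not measured.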

Other observations

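Some gene families that stand in clusters had members of both classes. Of 53 clustered protocadherin genes, which give neurons their surface identity, 5 (9.43%, against 4.05% of all genes) were HEK293T-only and 11 (20.8%, against 5.23%) K562-only. PCDHA11 had folds of 13 and 13.4 and PCDHAC2 9.90 and 10.1 in HEK293T, with no K562 peak. After scaling, 0 of the 11 K562-only calls held. Of 240 zinc finger genes on chromosome 19, 12 (5.00%) were HEK293T-only and 19 (7.92%) K562-only, near the shares of all genes, and 13 of those 19 held after scaling. Among 416 olfactory receptor genes, 14 (3.37%) were K562-only and 1 (OR52N2) HEK293T-only, and 383 had no promoter peak.

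Of 81 cytosolic ribosomal protein genes, 78 were open in all 4 libraries and 3 were K562-only. That is 3.70%, less than the 5.23% of all genes. These 3 genes kept the call after scaling. They are named here after their values were seen. RPL19 had folds of 6.95 and 6.68 in K562, and the nearest HEK293T peaks lay 2475 and 2507 bp from its start site. RPL41 had 5.90 and 5.31, with HEK293T peaks 1252 bp away in both replicates. Both promoters had peaks in all 4 libraries of GM12878 and HFF1. RPSA2 had 7.65 and 7.99, and GM12878 had no promoter peak there.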
